A study of Homo sapiens with 6 samples.

Results

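The genes described here encode the proteins particular to the U1 small nuclear ribonucleoprotein (snRNP) and the Sm core shared by spliceosomal snRNPs: SNRNP70, SNRPA and SNRPC for U1, and SNRPB, SNRPD1, SNRPD2, SNRPD3, SNRPE, SNRPF and SNRPG for the core. They are 10 of the 19974 protein-coding genes on chromosomes 1 to 22 and X in the RefSeq table of GRCh38.p14. Their peaks were those that met the gene span or the 5 kb on either side of it. This window held 11 of the 22362 SON peaks of untreated cells, 10 of 11158 SON peaks after 3 days of ICM, 4 of 5583 after 6 days of ICM and 5 of 6013 HMGB2 peaks of untreated cells.

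All lists came from IMR90, an established line of human embryonic lung fibroblasts, and were made by ChIPmentation of SON, which scaffolds nuclear speckles, or of HMGB2, a high mobility group protein that bends DNA. ChIPmentation is a form of chromatin immunoprecipitation in which a transposase adds the sequencing adapters while the chromatin is on the beads. The 4 groups were untreated cells for SON, 3 days of ICM for SON, 6 days of ICM for SON and untreated cells for HMGB2, and the labels do not spell out ICM. SON samples were fixed with formaldehyde and HMGB2 samples with EGS followed by formaldehyde, so target and fixation cannot be told apart. Each group is 1 deposited list, with no replicate list, so no test between conditions was made, and the depth of the libraries is unknown. In the SON lists each peak carries the −log10 p of 2 replicates, the lower of which stands as the peak's strength here, and an irreproducible discovery rate (IDR), a measure that is high for peaks that are weak in the replicates or ranked differently by them. These values are the authors' and rank peaks within 1 list, so strengths of different lists are set side by side and not compared in size. Of genes known for fibroblasts, 10 of 12 had an untreated SON peak and 6 an HMGB2 peak. For epithelial genes these counts were 1 and 0 of 5, for endothelial genes 3 and 1 of 4, and for blood genes 2 and 0 of 4. Of all protein-coding genes 57.1% had an untreated SON peak and 23.3% an HMGB2 peak. At 3 and 6 days 5 and 3 of the 12 fibroblast genes had a SON peak, near the 41% and 21.5% of all genes. A peak is not a measure of expression, and the endothelial gene TEK carried a peak in every list.

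The Sm proteins close into a ring around the small nuclear RNAs of U1, U2, U4 and U5, and this ring is needed for the mature particles to return to the nucleus. The U1 particle, with its own proteins U1-70K (SNRNP70), U1-A (SNRPA) and U1-C (SNRPC), pairs with the start of the intron and so opens spliceosome assembly. Nuclear speckles hold high concentrations of snRNPs and of other splicing factors. The peaks below are places on the DNA of these genes where SON or HMGB2 peaks were called. This is separate from where the proteins made from these genes are found.

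The DNA just before the gene start is the stretch in which the peaks concentrated, and 5 genes are shown that stand for the patterns found. SNRNP70 and SNRPD2 had a peak in every list, SNRPC in every SON list but not for HMGB2, SNRPB in the untreated and 3-day SON lists and for HMGB2, and SNRPF in the untreated and 3-day SON lists alone. Each sequence is the 250 bases before the RefSeq start (GRCh38.p14), written 5′ to 3′ on the strand of the gene. Capitals mark exact matches on either strand to CCAAT (the CCAAT box), GGGCGG (the GC box), CCGGAAG (ETS factors), TATAAA (the TATA box) and GATGGCG (part of the YY1 motif). These stretches lie on chr19:49085201-49085450 (plus strand) for SNRNP70, chr19:45692317-45692566 (minus strand) for SNRPD2, chr6:34757255-34757504 (plus strand) for SNRPC, chr20:2470790-2471039 (minus strand) for SNRPB and chr12:95858702-95858951 (plus strand) for SNRPF.
SNRNP70: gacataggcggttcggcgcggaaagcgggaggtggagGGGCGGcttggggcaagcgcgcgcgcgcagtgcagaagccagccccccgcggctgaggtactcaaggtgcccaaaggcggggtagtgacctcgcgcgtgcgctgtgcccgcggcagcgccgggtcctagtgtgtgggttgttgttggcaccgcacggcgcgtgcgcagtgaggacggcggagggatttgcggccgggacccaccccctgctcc
SNRPD2: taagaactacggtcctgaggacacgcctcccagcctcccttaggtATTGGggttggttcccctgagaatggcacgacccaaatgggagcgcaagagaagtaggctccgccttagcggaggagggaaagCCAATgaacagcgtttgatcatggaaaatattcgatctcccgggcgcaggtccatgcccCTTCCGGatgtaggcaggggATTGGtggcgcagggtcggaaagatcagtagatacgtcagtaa
SNRPC: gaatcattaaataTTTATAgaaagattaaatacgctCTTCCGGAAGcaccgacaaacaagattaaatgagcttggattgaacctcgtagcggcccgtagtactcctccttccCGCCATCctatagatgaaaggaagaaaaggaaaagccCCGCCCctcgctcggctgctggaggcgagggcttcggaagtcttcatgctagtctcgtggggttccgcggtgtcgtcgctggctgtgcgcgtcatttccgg
SNRPB: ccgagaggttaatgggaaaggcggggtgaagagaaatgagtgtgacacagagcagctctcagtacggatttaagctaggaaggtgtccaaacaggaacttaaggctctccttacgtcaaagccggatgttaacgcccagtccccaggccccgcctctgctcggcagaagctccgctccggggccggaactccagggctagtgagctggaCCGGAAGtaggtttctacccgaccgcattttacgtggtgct
SNRPF: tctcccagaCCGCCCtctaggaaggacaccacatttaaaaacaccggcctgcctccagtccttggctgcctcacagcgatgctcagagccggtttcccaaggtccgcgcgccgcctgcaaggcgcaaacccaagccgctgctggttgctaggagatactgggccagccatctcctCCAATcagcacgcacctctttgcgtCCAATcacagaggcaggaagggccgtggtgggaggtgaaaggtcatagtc

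The untreated SON peak covered all 250 of these bases in all 5 genes, and the HMGB2 peak covered 161 at SNRNP70, 250 at SNRPD2 and 170 at SNRPB. A RefSeq start at the end of the gene span was listed for 7 of the 10 genes, those 5 with SNRPA and SNRPD3. SNRPD1 had no entry, and the entries of SNRPE and SNRPG lay inside the gene. The GC box occurred in 5 of the 7 stretches (SNRNP70, SNRPA, SNRPC, SNRPD3 and SNRPF) and in 42.6% of the 35116 stretches of the table. Those 35116 include all listed starts of each gene, also starts inside it and those of noncoding genes. The 7 are only the starts at the end of the span. The ETS motif occurred in 3 (SNRPB, SNRPC and SNRPD2), against 8.52% of all stretches. In SNRPC the motif lay on both strands, overlapping itself around a shared centre. The CCAAT box occurred in 3 (SNRPA, SNRPD2 and SNRPF), against 32% of all, with 3 copies in SNRPD2 and 2 in SNRPF. The TATA box and the YY1 part occurred in SNRPC alone, against 10.7% and 2.38%. The searched parts of the motifs of NRF1 (CATGCGC), ZBTB33 (TCGCGA) and CTCF (AGGGGGC) were in none of the 7, against 3.77%, 2.64% and 13.3% of all stretches. Median GC content was 58.4% in the 7 and 58% in all, and the median number of CG dinucleotides was 15 and 11. These matches are letters found in these windows and no measure of binding.

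SON peaks were called at or near the start of these genes. In untreated cells all 10 genes carried a SON peak, and after 3 days of ICM all 10 did again. After 6 days 4 did, SNRNP70, SNRPC, SNRPD2 and SNRPG. HMGB2 peaks lay at 5 genes, SNRNP70, SNRPA, SNRPB, SNRPD2 and SNRPG. Over all protein-coding genes a peak was present at 57.1% (SON, untreated), 41% (SON, 3 days), 21.5% (SON, 6 days) and 23.3% (HMGB2). The counts of the 10 genes were above these shares in each list, but all 10 have an untreated SON peak. Of all genes with an untreated SON peak, 37.2% had a 6-day SON peak and 37.9% an HMGB2 peak, nearer to the 4 and 5 of the 10. A peak in the untreated and 3-day lists without one at 6 days was found at 6 of the 10 genes and at 19.8% of all genes. Of 8004 genes with both an untreated and a 3-day SON peak, 3953 had no 6-day peak and 4051 had one. The split of 6 and 4 among the 10 genes was near this. A peak in all 3 SON lists was found at 4 of the 10 and at 20.3% of all genes, and a peak in all 4 lists at 3 (SNRNP70, SNRPD2 and SNRPG) and 10.6%. None of the 10 lacked a peak in every list, as 40.3% of all genes did.

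**Figure D1:**
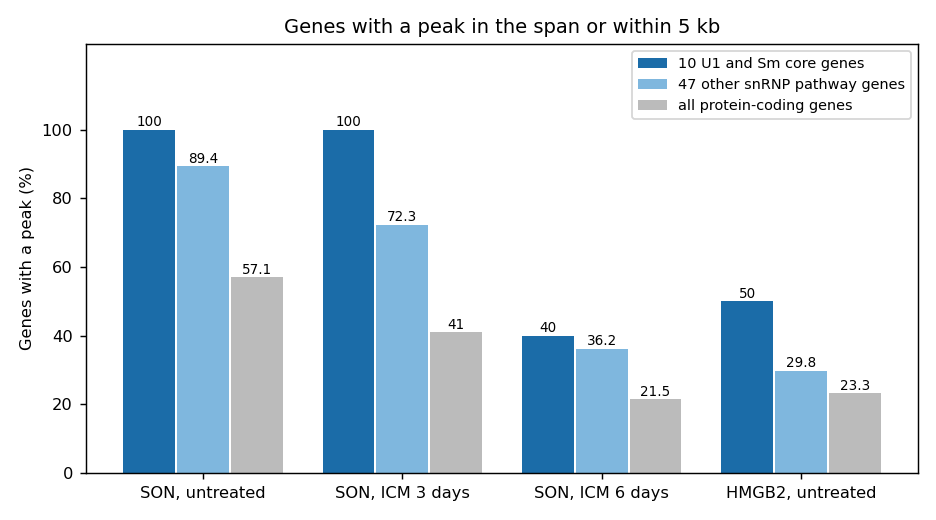
Percentage of genes with at least 1 peak in the gene span or within 5 kb of it, by peak list, for the 10 U1 and Sm core genes, 47 other genes of the snRNP pathway and all protein-coding genes. The 10 genes stand at 100% in the untreated and 3-day SON lists and at 40% after 6 days, where all protein-coding genes stand at 21.5%. Of all genes with an untreated SON peak, as all 10 have, 37.2% had a 6-day peak (not drawn).

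Many genes have an untreated SON peak, and the later lists are shorter, so the 10 genes were also read against the 11401 genes with an untreated SON peak. Of those, 70.2% had a SON peak at 3 days, 37.2% at 6 days and 37.9% an HMGB2 peak. The 10 genes stood at 10, 4 and 5, so at 6 days their count was close to this background. Shares at 3 days, at 6 days and for HMGB2 rose with the strength of the untreated peak and are given by class below. When every list was limited to the same number of its strongest peaks, 5583, SON peaks were left at 7 genes in the untreated list, 8 in the 3-day list and 4 in the 6-day list, against 26.3%, 27.2% and 21.5% of all genes. The 6-day list is the shortest of the 4, so its count did not change.

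The peaks had nearly the same place in every list. Of the 9 genes whose strand the RefSeq table gives, 8 had an untreated SON peak lying over the 5′ end of the span, SNRPD3 being the exception, and 58.5% of the genes with a strand and a peak did. At 3 days this held for 8 of 9 (56.7% of all such genes), at 6 days for 4 of 4 (40.1%) and for HMGB2 for 2 of 5 (30.6%). The untreated summit, the position of highest signal, lay upstream of the 5′ end at all 10 genes if the peak with the higher strength is taken at SNRPD3. Its distance ran from 19 bp at SNRPD1, where the lower coordinate was taken as the start, to 541 bp at SNRPA. At SNRNP70 the summit lay 153, 162 and 159 bp upstream in the untreated, 3-day and 6-day lists. At SNRPC it lay 69, 80 and 140 bp upstream, and at SNRPD2 116, 89 and 136 bp upstream. At SNRPG it lay 27 bp upstream in untreated cells, 71 bp downstream at 3 days and 29 bp upstream at 6 days. These distances are to the end of the gene span. RefSeq lists the starts of SNRPG inside the span, at 70293224, 70293447 and 70293458. Neither the 6-day SON peak nor the HMGB2 peak covered any of them. The listed start of SNRPE, at 203861847, lay inside the gene beyond both of its SON peaks.

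**Figure D2:**
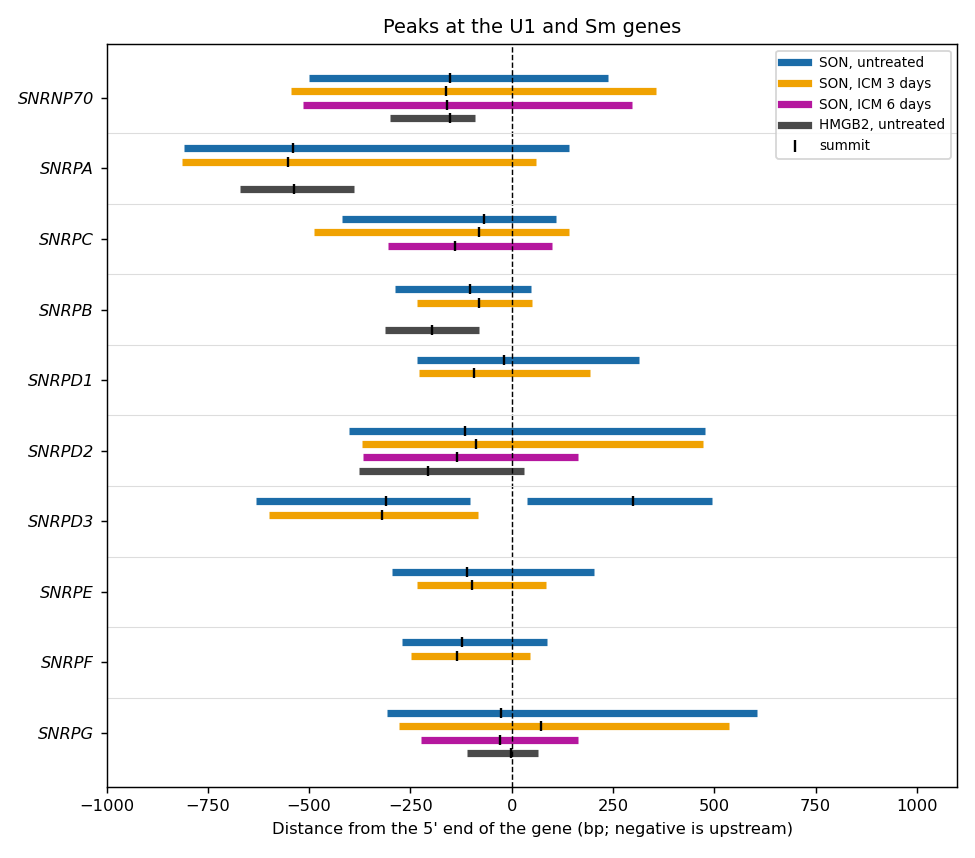
Extent of each peak (bars) and its summit (ticks) against the 5′ end of the gene in bp, with negative values upstream, for the 3 SON lists and the HMGB2 list. SON peaks cover the 5′ end of the gene span at 9 of the 10 genes in untreated cells, and SNRPD3 has a peak on each side of it. The 6-day peaks of SNRPC, SNRPD2 and SNRPG are shorter than the untreated ones. For SNRPD1 the lower coordinate of the span is used.

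Of the 11 untreated SON peaks, 10 overlapped a 3-day SON peak, 4 a 6-day SON peak and 5 an HMGB2 peak by at least 1 bp. The corresponding shares of all untreated peaks were 45.7%, 22.2% and 16.5%. The peak without a 3-day partner was the one that lay downstream of the start of SNRPD3. At 6 days SNRPC, SNRPD2 and SNRPG kept a peak over the 5′ end with a width of 406, 530 and 389 bp, where the untreated peaks measured 528, 879 and 915 bp. At SNRNP70 the widths were 740, 903 and 814 bp in the order of the lists. A peak's width also depends on the depth of the library, which is unknown. Other protein-coding genes came within 5 kb of a span without meeting any of these peaks, namely GIPR at 3731 bp from SNRPD2, CCDC38 at 907 bp from SNRPF, and PCYOX1 at 176 bp and FAM136A at 2235 bp from SNRPG.

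Among the U1 genes, SNRNP70, which encodes the protein that binds the first stem-loop of U1 RNA, had the strongest SON peaks of the set in every SON list. Its gene (gene ID 6625) spans chr19:49085451-49108604, and the untreated peak lay on chr19:49084950-49085689. The −log10 p was 149.8 in both replicates of untreated cells. At 3 days it was 137.5 in replicate 1 and 479 in replicate 2, and at 6 days 53.5 and 72.2. The peak ranked 51st of 22362, 68th of 11158 and 62nd of 5583 lines, so it stood among the strongest lines of all 3 lists. Its global IDR was 0.000259, 1e-05 and 4.23e-05. The HMGB2 peak, on chr19:49085150-49085361, lay whole inside the untreated SON peak with its summit 1 bp from the SON summit. Within its own list the HMGB2 peak was weak, with a fold enrichment of 3.17, a −log10 p of 7.74 and rank 4396 of 6013. The strongest SON gene of the set was thus the one with the weakest HMGB2 peak. This order did not run through the set, since SNRPD2, at 43.1 in the untreated SON list, had the strongest HMGB2 peak, at 29.0.

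SNRPA encodes the U1 protein that binds the second stem-loop of U1 RNA, and its SON peaks had the largest ratios between replicates in the untreated and the 3-day list, 2.21 and 3.61. The gene (gene ID 6626) spans chr19:40751203-40765389. The untreated peak, on chr19:40750394-40751344, had a −log10 p of 42.8 in replicate 1 and 19.3 in replicate 2 and a global IDR of 0.142. The 3-day peak had 5.53 and 19.9, with a global IDR of 0.447, the largest of that list. No 6-day peak was found. The neighbouring gene ACTMAP starts across a gap of 725 bp and runs the other way, and both SON peaks reached over the starts of both genes. Their summits lay in the gap, 541 and 553 bp upstream of SNRPA. The HMGB2 peak, on chr19:40750533-40750813, lay in the gap as well, with its summit 3 bp from the untreated SON summit, a fold enrichment of 4.9, a −log10 p of 16.7 and rank 661. To which of the 2 genes these peaks belong cannot be told from the lists.

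SNRPC encodes the zinc finger protein that steadies the pairing of U1 with the intron start. The gene (gene ID 6631) spans chr6:34757505-34773857 and no other gene of the table lay within 5 kb. Its untreated SON peak, on chr6:34757086-34757613, had a −log10 p of 43.7 in both replicates and ranked 665th. At 3 days the values were 11.4 and 12.5, with rank 3674. At 6 days they were 11.8 and 7.03, with rank 4252, and the global IDR was 0.365. No HMGB2 peak lay in the window. The gene thus kept a SON peak in every list. Its strength was above that of 97.0% of the untreated lines, 67% of the 3-day lines and 23.8% of the 6-day lines. The lists differ in length, which also moves these percentages.

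**Figure D3:**
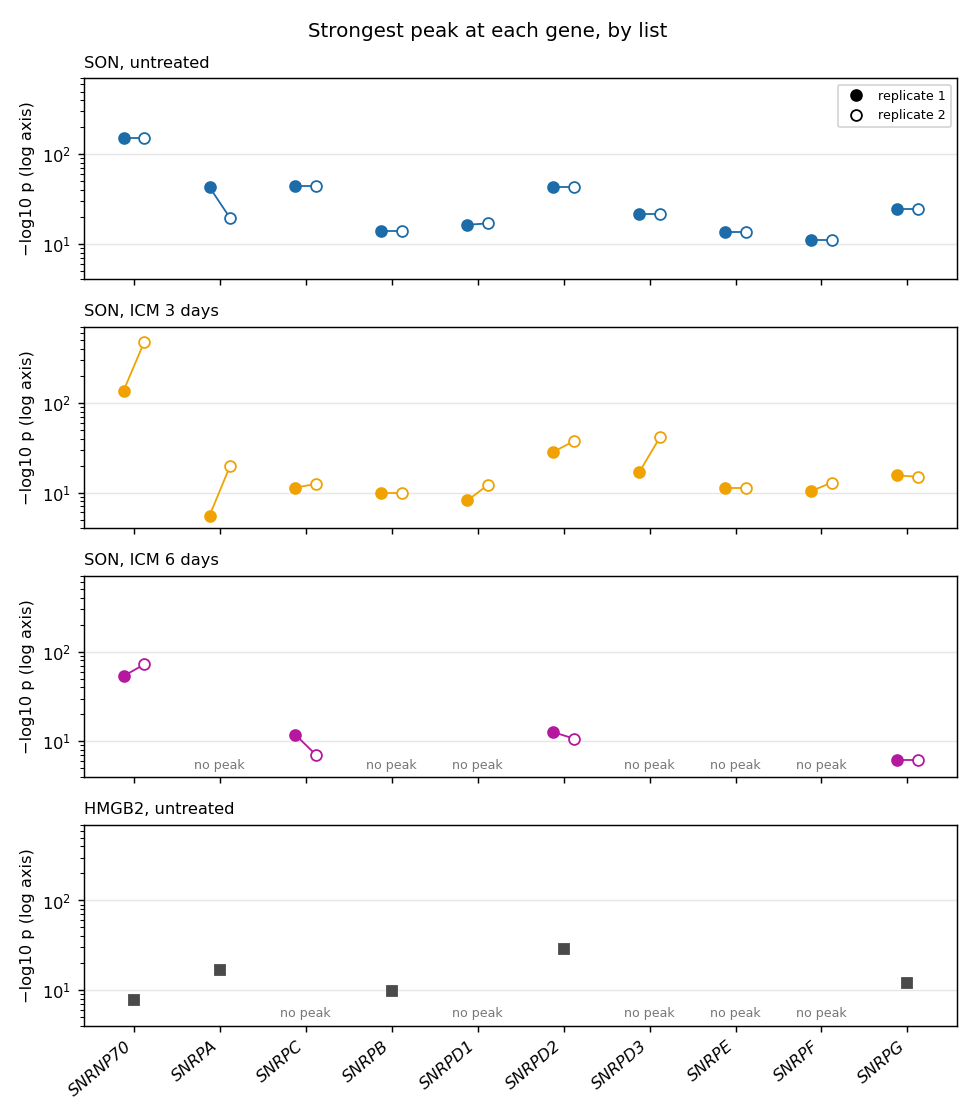
The −log10 p of the strongest peak at each gene on a log axis, 1 panel per list, with replicate 1 (filled) and replicate 2 (open) of the SON lists joined by a line and the single value of the HMGB2 list as a square. SNRNP70 is the highest gene in each SON panel, and 6 genes have no 6-day SON peak.

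SNRPD2, which encodes a protein of the Sm ring, had the strongest untreated SON peak of the core genes. The gene (gene ID 6633) spans chr19:45687454-45692316, and its start faces that of QPCTL, 349 bp away. The untreated peak, on chr19:45691839-45692717, had a −log10 p of 43.1 in both replicates and ranked 688th. At 3 days the values were 28.5 and 37.5 (rank 787), and at 6 days 12.7 and 10.7 (rank 1484, global IDR 0.11). The HMGB2 peak, on chr19:45692285-45692692, was the strongest of the set in that list, with a fold enrichment of 6.03, a −log10 p of 29.0 and rank 144. It lay whole inside the untreated SON peak, with its summit 91 bp from the SON summit. Every one of these peaks also met the span of QPCTL, so SNRPD2 and QPCTL share them.

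SNRPG, another protein of the ring, was the second core gene with a peak in all 4 lists. The gene (gene ID 6637) spans chr2:70281362-70293740. The untreated SON peak, on chr2:70293135-70294049, had a −log10 p of 24.5 in both replicates. At 3 days the values were 15.5 and 15.1, and at 6 days 6.17 in both. The 6-day peak had a global IDR of 0.63, the largest of its list, and ranked 5022nd of 5583, a low place in the list, and 39% of the 6-day lines shared that IDR. The HMGB2 peak, on chr2:70293676-70293850, had a fold enrichment of 4.85, a −log10 p of 12.1 and its summit 25 bp from the untreated SON summit. All 3 SON peaks also met the long noncoding RNA gene LOC124906023, which begins 161 bp away.

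SNRPB encodes the SmB and SmB′ proteins, and a SON peak was called at it in untreated cells and at 3 days. The gene (gene ID 6628) spans chr20:2461642-2470789. The untreated peak, on chr20:2470741-2471078, had a −log10 p of 13.8 in both replicates. The 3-day peak had 9.86 in both, with a global IDR of 0.0565. Its HMGB2 peak, on chr20:2470870-2471101, had a fold enrichment of 4.32 and a −log10 p of 9.87, and of the 5 HMGB2 peaks it was the one that ran past the edge of the untreated SON peak. The summits lay 93 bp apart.

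SNRPD1 and SNRPD3 encode ring proteins that carry arginine and glycine tails, and neither had a 6-day SON peak or an HMGB2 peak. SNRPD1 (gene ID 6632) spans chr18:21612314-21633520, and its untreated SON peak, on chr18:21612079-21612627, had a −log10 p of 16.3 and 16.9 in the replicates. At 3 days the values were 8.16 and 12.2, with a global IDR of 0.0887. SNRPD3 (gene ID 6634) spans chr22:24555650-24574971 and overlaps GUCD1 at its start. In untreated cells one SON peak lay before the start, on chr22:24555018-24555547, with a −log10 p of 21.3 in both replicates, and another after it, on chr22:24555688-24556145, with 13.6 in both. At 3 days the one before the start was found, with 16.9 and 41.3. All 3 of these peaks met GUCD1, and those before the start met the span of GUCD1 and not that of SNRPD3. RefSeq lists a start of GUCD1, which runs the other way, at position 24555138 under the peaks before the start of SNRPD3. Another GUCD1 start, at 24555894, and another SNRPD3 start, at 24555999, lay under the untreated peak after it.

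SNRPE and SNRPF encode proteins that sit side by side in the ring, and they had the weakest untreated SON peaks of the set. SNRPE (gene ID 6635) spans chr1:203861599-203871152. Its peaks had a −log10 p of 13.5 in both replicates of untreated cells, on chr1:203861304-203861801, and of 11.3 in both at 3 days. SNRPF (gene ID 6636) spans chr12:95858952-95866140. Its untreated peak, on chr12:95858681-95859040, had 11.2 in both replicates, and the 3-day peak had 10.4 and 12.9. The SNRPF peaks also met SNRPF-DT, a long noncoding RNA gene that starts 112 bp away and runs the other way. Neither gene had a 6-day SON peak or an HMGB2 peak.

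In untreated cells the order of strength was SNRNP70, SNRPC, SNRPD2, SNRPG, SNRPD3, SNRPA, SNRPD1, SNRPB, SNRPE and SNRPF. The median was 20.3, and over all genes with an untreated peak the strongest peak had a median of 14.6. At 3 days the medians were 11.3 for the 10 genes and 11.2 for all genes with a peak, and at 6 days 8.88 for the 4 genes with a peak and 9.25 for all genes with one. SNRPC and SNRPD2, at 43.7 and 43.1, and SNRPB and SNRPE, at 13.8 and 13.5, stood close to each other, and only SNRPA and SNRPD1 had replicate values that differed in untreated cells. SNRPA, at 42.8 in replicate 1, would stand beside SNRPD2 by that replicate. Equal values in both replicates were common, with 55.9% of untreated lines, 29% of 3-day lines and 9.49% of 6-day lines, and how the replicates were made is not stated, so the spread between them may be technical.

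The 4 genes with a 6-day SON peak were the 4 with the strongest untreated peaks. SNRPG was the weakest of them, with an untreated −log10 p of 24.5, and SNRPD3 the strongest of the other 6, with 21.3. By replicate 1 alone this order did not hold, since SNRPA, with 42.8 there, had no 6-day peak. The same relation ran through all genes. Of 2758 genes whose strongest untreated peak was at least as strong as that of SNRPG, 80.2% had a 6-day peak, and of 7936 genes at or below SNRPD3 20.6% did. Those limits were set after the values were seen. In 5 equal classes of untreated strength, from weak to strong, the share with a 6-day peak was 8.33%, 15.1%, 29.7%, 48.2% and 84.7%. The set had 0, 1, 3, 3 and 3 genes in these classes, of which 0, 0, 0, 1 and 3 had a 6-day peak. The shares with a 3-day peak rose in the same way, 28.6%, 51.5%, 78.6%, 92.7% and 99.6%. Those with an HMGB2 peak were 20.6%, 27.8%, 38.9%, 45.2% and 57.2%. The set lay mostly in the stronger classes, so its 3-day, 6-day and HMGB2 counts are to be read against the higher of these shares.

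**Figure D4:**
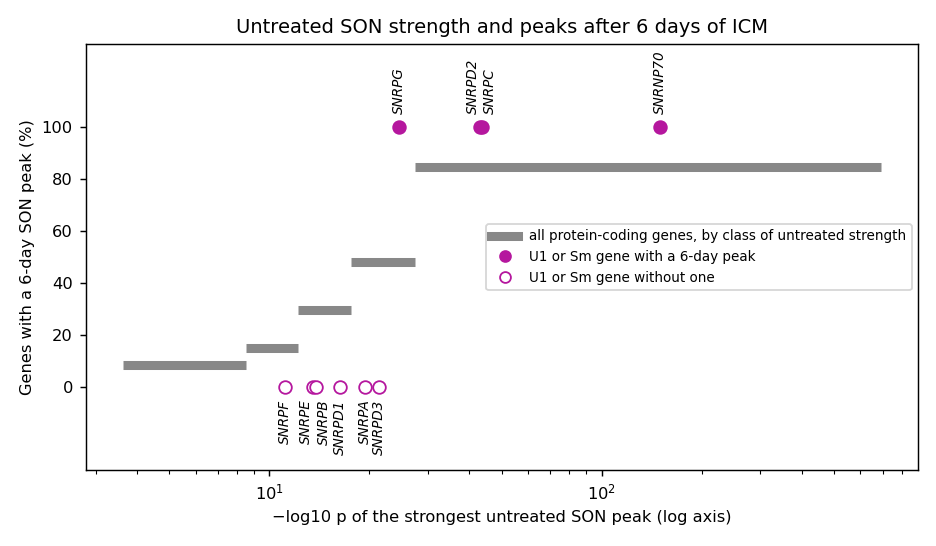
Percentage of protein-coding genes with a 6-day SON peak (bars, 5 equal classes of genes by the −log10 p of their strongest untreated SON peak, log axis), with the 10 U1 and Sm genes drawn at 100% where they have a 6-day peak and at 0% where they do not. The 4 genes with one stand at 24.5 or above on the horizontal axis and the other 6 at 21.3 or below.

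Of the 6-day peaks, those of SNRPC, SNRPD2 and SNRPG had a global IDR above 0.05. With a global IDR of at most 0.05 the genes with a SON peak numbered 9 without treatment, where SNRPA dropped out, 7 after 3 days, where SNRPA, SNRPB and SNRPD1 did, and 1 after 6 days, SNRNP70. The shares of all genes under this limit were 45%, 24% and 5.02%. Of the SON lines as a whole, 32.6%, 31.9% and 39% sat at the largest IDR of their list.

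The other genes of the snRNP pathway were read in the same window, 47 genes in 7 lists. A SON peak was present at 42 of them (89.4%) without treatment, at 34 (72.3%) after 3 days and at 17 (36.2%) after 6 days, and an HMGB2 peak at 14 (29.8%). Of all protein-coding genes 57.1%, 41%, 21.5% and 23.3% had one, in the same order. Among 8 auxiliary U1 proteins, such as LUC7L and TIA1, the counts were 7, 7, 3 and 4 in the same order. Among 10 LSM genes, whose products form Sm-like rings, they were 10, 8, 6 and 4. Of 12 genes of Sm ring assembly, the SMN complex and the enzymes that methylate Sm proteins, 9, 7, 4 and 3 had a peak. For 7 genes of snRNA capping and transport they were 7, 5, 1 and 3, and for 7 genes of the U11/U12 particle of the minor spliceosome 6, 5, 2 and 0. The U2 genes SNRPA1 and SNRPB2 both had a SON peak in untreated cells and at 3 days, SNRPB2 had one at 6 days, and neither had an HMGB2 peak. SNRPN, a paralog of SNRPB expressed mainly in brain, had an untreated SON peak with a −log10 p of 9.53 and no other.

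Peaks in all 4 lists were found at 7 of these 47 genes, LUC7L2, LSM1, LSM2, LSM4, GEMIN7, PRMT5 and KPNB1. Over all protein-coding genes the share was 10.6%. LUC7L2, a U1-associated protein, had a −log10 p of 90.7, 92.3 and 26.1 in the 3 SON lists and of 10.3 for HMGB2. PRMT5, the methyltransferase of Sm tails, had 46.4, 26.7, 23.8 and 15.8. LSM2, of the ring on U6 RNA, had 28.0, 26.3 and 10.3, and the HMGB2 peak in its window, at 50.1, was stronger than any of the 10 U1 and Sm genes had in that list. For these 47 genes, whether a peak also met a neighbouring gene was not checked. No peak in any list was found at PRPF40B, SMN1, GEMIN5, CLNS1A and ZCRB1, a lack shared by 40.3% of all genes. SMN1 has a near-identical copy, SMN2, and reads from the pair are hard to place, so its lack of a peak is uncertain.

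By the percentile of the strongest peak within each list, with 0 for no peak, the 10 genes had medians of 84.3, 66.7 and 0 in the 3 SON lists, in order of time, and of 13.4 for HMGB2. The HMGB2 median falls between the genes with no peak, at 0, and SNRNP70, at 26.8, the lowest of those with one. None of the 10 genes had that value, so the medians describe no gene of the set. The protein-coding genes nearest to these medians over the 4 lists were PSMD8, with a mean absolute difference of 0.343 percentile points, CATSPERG, with 1.5, and MTF2, with 2.67. PSMD8 and CATSPERG had the same percentiles in the untreated and 3-day SON lists, 83.5 and 67.0. Whether these are the same peaks, counted for both genes, was not checked.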

How the data were processed

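Peak lists of 4 of the 6 samples were used, 1 per group, and the input and DSG samples of HMGB2 were not used here. The submitters' processing notes name bcl2fastq 2.17, Bowtie2, MACS2, deepTools and hg38, and per the file layout the SON lists came from IDR on 2 replicates. The control used for peak calling, the filters and the depth are not given in the sources used here. In the SON lists the authors deposited −log10 p of each replicate, −log10 of the IDR and a score, and in the HMGB2 list a fold enrichment, −log10 p, −log10 q and a score, with a q cutoff of 0.03 in the peak names. The lower replicate value was the list's own value in all lines.

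Gene spans and starts came from RefSeq tables of GRCh38.p14. A gene counted as having a peak when a peak met its span or 5 kb on either side. Ranks ran over all lines of a list, and a percentile is the percentage of lines with a lower value. Every protein-coding gene on chromosomes 1 to 22 and X gave the background. Every U1 and Sm gene is named, with the protein-coding genes that meet its window, and of the other pathway genes those with a peak in all lists or in none. The nearest genes were the 3 with the smallest mean absolute difference of percentiles. The genes and lists were chosen with earlier results of these data known. The window count was tested on simulated data. Alternatives were the gene span alone, 10 kb, 1 kb from a start, a global IDR of at most 0.05 (HMGB2: −log10 q of at least 3), the stronger 50% of each list, lists of equal length, other overlap rules and the value of each replicate. Python 3.11.15, numpy 2.4.6, pandas 2.3.3 and matplotlib 3.10.9 were used.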

Additional observations from a re-analysis of the deposited data

How the results depend on the processing

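No paired analysis was possible because each group has 1 list, and for the same reason no list could be left out. The number of U1 and Sm genes with a peak stayed within 1.5 times in 21 of 24 alternative values. At 6 days it was 1 in place of 4 under an IDR limit of 0.05 (5.02% of all genes) and 2 with the stronger 50% of the list (12.7%), and for HMGB2 it was 2 in place of 5 within the gene span alone (15.6%), since 3 of the peaks lay before the start. For the other pathway genes 17 of 24 values stayed within 1.5 times. The exceptions follow, with the share of all genes under the same setting in brackets. In untreated cells the count of the 47 was 27 with the stronger 50% (40.9%) and 19 with equal length (26.3%), in place of 42. With the IDR limit it was 22 in place of 34 at 3 days (24%) and 3 in place of 17 at 6 days (5.02%). With the stronger 50% it was 8 at 6 days (12.7%). For HMGB2, in place of 14, it was 7 within the span (15.6%) and 9 within 1 kb of a start (16.2%). The 1 kb share is over genes with a listed start, and how many of the 47 have one is not given here. All 6 values of shared peaks under other overlap rules stayed within 1.5 times. Median strength was 22.9 by replicate 1 in place of 20.3 in untreated cells, 13.99 by replicate 2 in place of 11.3 at 3 days and 12.2 by replicate 1 in place of 8.88 over the 4 genes at 6 days. The cause of these changes was not tested, beyond the smaller number of peaks that stricter limits leave. The 1 kb window could be read for 9 of the 10 genes. Depth is unknown, so a gene without a peak is one where none was called.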
